A study of Rattus norvegicus with 18 samples.

Results

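The Piwi and Argonaute genes encode the proteins that hold a small RNA and use it as a guide to matching RNA. The 7 genes described here were chosen by name with earlier results of these data known. They are the Piwi genes Piwil1, Piwil2 and Piwil4 and the Argonaute genes Ago1, Ago2, Ago3 and Ago4, out of 32285 genes in the retina count table and 32552 in the RPE/choroid count table. All 7 were found by name in retina and 6 in the names given for RPE/choroid, where Piwil1 was found by its identifier. Because the choice was made from these data, their values are given as a description, with no p-value.

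RNA was sequenced from neural retina and from RPE/choroids (the retinal pigment epithelium with the choroid, the vascular coat beneath it) of wild-type female Fischer344 rats. Each tissue had 3 libraries of each of 3 groups, 18 libraries in all. Young rats were 4 months old by the labels and untreated, aged rats were 24 months old and drank water only, and the third group was 24 months old and had taken 8-aminoguanine (8-AG, an inhibitor of purine nucleoside phosphorylase) in the drinking water at 5 mg/kg per day for 8 weeks from 22 months of age. Retina libraries came from polyA capture, although the 3 libraries of 8-AG-treated retina are labelled total RNA, and RPE/choroid libraries used polyA selection with full-length enrichment because little RNA was obtained. Total counts were 12283458 to 15644346 per retina library and 28573828 to 48203050 per RPE/choroid library. In RPE/choroid, young libraries 1 and 2 share a number in their descriptions and differ only by L and R, as do aged libraries 1 and 2. The labels do not say that replicates are separate animals, and p-values then measure only the spread between these libraries, which may be technical.

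Piwi proteins are best known from the germline, where they bind Piwi-interacting RNAs (piRNAs) and silence transposons. Piwil1 and Piwil2 act with piRNAs in the cytoplasm, and Piwil4 carries them to the nucleus. Argonaute proteins are present in nearly all cells and bind microRNAs, which direct them to messenger RNAs that are then repressed and shortened, and Ago2 can also cut its target. In bulk tissue, fewer cells of a type and less RNA per cell cannot be told apart.

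Levels are CPM, read counts set to a common library size after TMM scaling (trimmed mean of M values, which equalizes libraries on the bulk of genes), over the 9 libraries of a tissue. Transcript lengths were not used, so levels are compared between groups and not between genes. A log2 fold change comes from edgeR fitted to the 6 libraries compared. Called means a Benjamini-Hochberg adjusted p under 0.05 over all genes tested, unless the study's rule is named, which takes genes that changed more than 1.5-fold with a P under 0.05 before adjustment.

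Piwil2 (ENSRNOG00000009871) was the member with the largest log2 fold change between young and aged retina. It measured 6.24, 8.51 and 6.22 CPM in the 3 young libraries, from 81, 113 and 92 counts. In aged retina it measured 31.7, 44.3 and 39 CPM, from 406, 694 and 565 counts. The lowest aged library stood above the highest young library by a wide margin. The means were 6.99 ± 1.32 and 38.3 ± 6.32 CPM (SD, n = 3 each), a log2 fold change of 2.46 (SE 0.16) or 5.49-fold. By log2 fold change Piwil2 was number 94 from the top of the 14588 genes tested.

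After 8-AG the same gene measured 33.4, 38.1 and 39.8 CPM. All 3 treated libraries lay within the range of the untreated aged libraries and above every young one. Their mean was 37.1 ± 3.30 CPM (SD, n = 3), a log2 fold change of −0.05 (SE 0.13) against aged and 2.41 (SE 0.14) against young. The treated and the aged comparison with young share the young libraries.

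Markers of rods, microglia and blood also differed between the ages, and these values stand beside every retina result here. The summed level of the 11 rod markers found was 55977 to 60842 CPM in young, 35487 to 39911 in aged and 35929 to 47505 in 8-AG retina. The 9 microglia and macrophage markers summed to 36.5 to 38, 114 to 198 and 129 to 135 CPM. The 4 erythroid markers found summed to 23.7 to 41.8 CPM in young, 77.1 to 368 in aged and 53.1 to 128 in 8-AG retina. Surface epithelium markers summed to 1.55 to 3.91, 2.65 to 5.55 and 12.5 to 29.8 CPM, so that 8-AG retina lay above aged retina without overlap. Per 1000 CPM of rod markers, Piwil2 gave 0.103 to 0.152 CPM in young libraries and 0.893 to 1.21 in aged libraries, a ratio that widens the difference because the rod sum was lower in aged retina. Lens markers reached 2751 and 6053 CPM in young libraries 1 and 2 and 1710 CPM in 8-AG library 1, against 17.0 to 146 CPM in the other 6 retina libraries. The part of these cells in the results was not tested.

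Piwil1 (ENSRNOG00000000934) ran the other way at a much lower depth. Young retina held 24, 26 and 22 counts, or 1.85, 1.96 and 1.49 CPM. Aged retina held 4, 4 and 9 counts, or 0.312, 0.255 and 0.622 CPM, and all 3 lay under every young library. The log2 fold change was −2.13 (SE 0.39), from 1.76 ± 0.247 to 0.396 ± 0.197 CPM (SD, n = 3 each). Without aged library 3 it was −2.61, and without aged library 2 it was −1.87. Piwil1 reached the expression filter through the young libraries alone. The 8-AG libraries held 2, 4 and 5 counts, a range that meets that of the aged libraries, and Piwil1 was too low to be tested between these groups.

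Piwil4 (ENSRNOG00000009043) was barely detected in retina. It had 6 counts in the 9 libraries together and at most 2 in any library, so no group difference was detectable at this depth. In 5 of the 9 libraries it had no count, which at these depths allows up to 3 counts per library (counting error only).

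**Figure D1:**
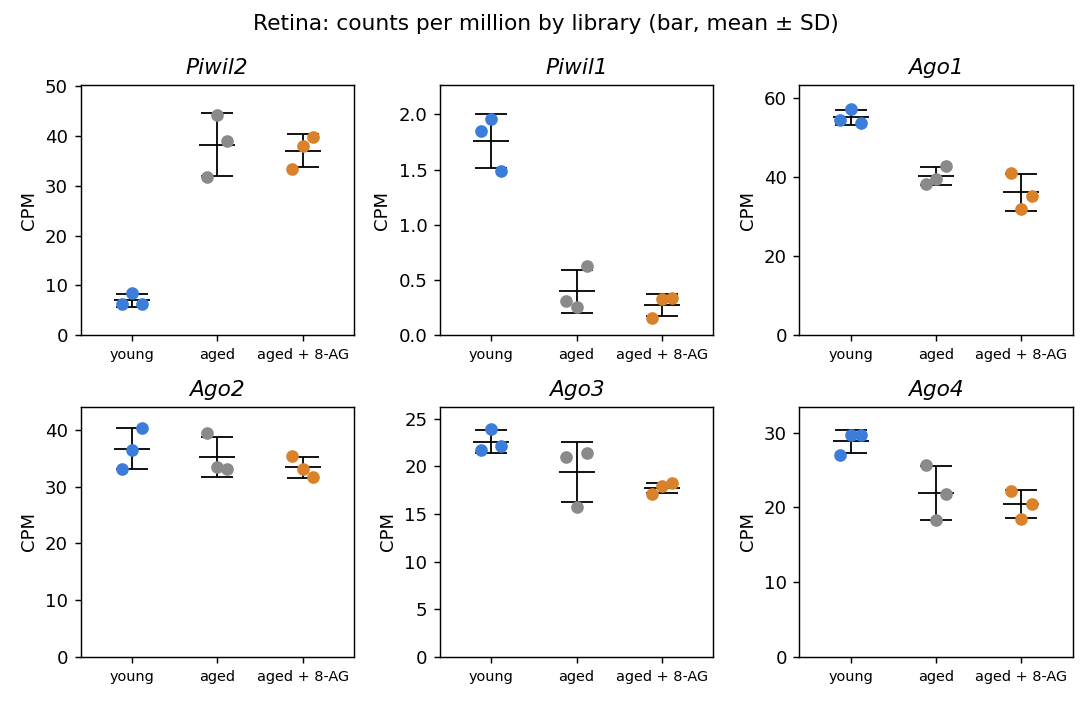
Level of the Piwi and Argonaute genes in retina, in CPM, with 1 point per library, in replicate order, and the mean ± SD of 3 libraries. Piwil2 lies between 6.22 and 8.51 CPM in young retina and between 31.7 and 44.3 CPM in both aged groups, Piwil1 is lower in both aged groups, and each Argonaute panel starts at 0.

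Ago1 (ENSRNOG00000055915) was the Argonaute whose aged libraries lay farthest below the young ones. It measured 54.5, 57.3 and 53.6 CPM in young retina. Aged libraries gave 38.3, 39.5 and 42.8 CPM and 8-AG libraries 41.1, 31.9 and 35.2 CPM. Both aged groups lay wholly under the young group and met each other. Aged against young, the log2 fold change was −0.46 (SE 0.07), with means of 40.2 ± 2.32 and 55.1 ± 1.93 CPM (SD, n = 3 each).

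Ago4 (ENSRNOG00000025596) measured 27.0, 29.7 and 29.7 CPM in young, 25.6, 18.3 and 21.8 CPM in aged and 22.2, 18.4 and 20.5 CPM in 8-AG retina. Its aged group again lay under the young group, but aged library 1 came within a short distance of young library 1. The log2 fold change was −0.40 (SE 0.12).

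Ago3 (ENSRNOG00000034269) measured 21.7, 23.9 and 22.1 CPM in young and 21.0, 15.7 and 21.4 CPM in aged retina. Aged libraries 1 and 3 sat just under the lowest young library and library 2 well below, with a log2 fold change of −0.22 (SE 0.12). Leaving out 1 library at a time gave −0.30 to −0.09. The 8-AG libraries were close together at 17.1, 17.9 and 18.2 CPM, and the log2 fold change against young was −0.35 (SE 0.09).

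Ago2 (ENSRNOG00000008533), the Argonaute that cuts its target, was the only one whose young and aged libraries overlapped in retina. It measured 33.2, 36.5 and 40.4 CPM in young, 39.4, 33.4 and 33.2 CPM in aged and 35.5, 33.2 and 31.7 CPM in 8-AG retina. Aged against young it gave a log2 fold change of −0.06 (SE 0.10), smaller than its own error.

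Of the 6 members tested in aged against young retina, 4 were called, with Piwil2 higher and Piwil1, Ago1 and Ago4 lower, where 14.5% of all genes tested were called (7.29% higher and 7.26% lower). By the study's rule Piwil2 and Piwil1 were called, against 8.84% of all genes. Groups did not overlap for 5 of the 6, against 35.3% of all genes tested. The call for Ago4 was lost when any 1 of 5 of the 6 libraries was left out (each young library, and aged libraries 2 and 3), with DESeq2, with robust=FALSE and when libraries were scaled by their totals, while Piwil2 and Ago1 kept theirs in each of those fits. Piwil1, which came into the test only through the group where it is high, is counted as a description, and it was not tested when every library had to hold at least 10 counts. Scaling by library totals moved the median of all genes from 0.002 to 0.117 on the log2 scale, and with it Ago1 to −0.34, Ago4 to −0.28, Ago3 to −0.11 and Ago2 to 0.06, which turned the sign of Ago2.

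Between 8-AG-treated retina, whose libraries are those labelled total RNA, and untreated aged retina, none of the 5 members tested was called in edgeR, where 0.0205% of all genes tested were. In that comparison 537 of 14631 genes had an unadjusted P under 0.05 and DESeq2 called 18 genes. The study's rule took 0.957% of all genes and none of the members. All 5 had log2 fold changes between −0.16 and −0.05, and none had groups that did not overlap, against 8.78% of all genes. With young retina as the reference, 5 of 6 members were called, with 14.9% of all genes called (7.78% higher and 7.10% lower), and by the study's rule 3 were, Piwil2, Piwil1 and Ago1, against 8.58% of all genes. Groups did not overlap for 5 of the 6 (35.5% of all genes). Each of these counts includes Piwil1, which again entered only through the young libraries, so nothing is read from them. The 5 called by adjusted p are the 4 already named and Ago3, and the log2 fold changes of Ago1 and Ago4 were −0.61 (SE 0.10) and −0.50 (SE 0.10). Leaving out young library 2 or 8-AG library 2 took the calls of Ago3 and Ago4 away, and leaving out young library 1, young library 3 or 8-AG library 1 took that of Ago3. The call of Ago3 was also lost with DESeq2, with scaling by library totals and in a fit of all 3 groups.

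The 4 Argonaute genes together gave 136, 147 and 146 CPM in young, 124, 107 and 119 CPM in aged and 116, 101 and 106 CPM in 8-AG retina. Both aged groups lay under the young group. Ago1 held 38.5% ± 1.68 of the Argonaute counts in young, 34.5% ± 3.27 in aged and 33.5% ± 2.0 in 8-AG retina (SD, n = 3 each), and its young and aged shares overlapped (36.7 to 40.0% and 30.8 to 36.9%). Ago2 held 25.6% ± 1.80, 30.3% ± 2.15 and 31.1% ± 1.42, and its young shares of 24.4 to 27.7% lay below every aged library (27.8 to 31.7%) by a narrow gap. Such shares depend on transcript length and serve only to compare groups. Across the 9 retina libraries the 6 pairs of Argonaute genes had Pearson correlations of 0.41 (Ago1 and Ago2) to 0.87 (Ago3 and Ago4) on log2(CPM + 1), and across the 9 RPE/choroid libraries of −0.49 (Ago2 and Ago3) to 0.27 (Ago1 and Ago2). The libraries share 3 groups, so the correlations carry the group differences.

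Ago1, Ago3 and Ago4 lie close together on chromosome 5 of the rat, and Ago1 and, less firmly, Ago4 were called in aged against young retina, so the sequence around their annotated starts is shown with that of Piwil1. Each is 300 bases from RefSeq, build GRCr8, on the minus strand, written 5′ to 3′, and 5 of the 7 members matched an entry. For Ago1 it is chr5:144041575-144041874, for Ago3 chr5:143998688-143998987, for Ago4 chr5:144110353-144110652 and for Piwil1 chr12:33606534-33606833. Capitals mark the MYB core AACNG and, in the Argonaute genes, the GC box GGGCGG, or, in Piwil1, the E-box CACGTG, all on either strand.
Ago1: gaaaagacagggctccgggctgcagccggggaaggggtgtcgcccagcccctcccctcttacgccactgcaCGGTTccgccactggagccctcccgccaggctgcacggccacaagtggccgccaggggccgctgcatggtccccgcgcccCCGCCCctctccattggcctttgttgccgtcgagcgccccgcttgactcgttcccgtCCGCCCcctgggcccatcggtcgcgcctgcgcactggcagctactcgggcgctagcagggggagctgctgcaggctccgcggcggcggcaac
Ago3: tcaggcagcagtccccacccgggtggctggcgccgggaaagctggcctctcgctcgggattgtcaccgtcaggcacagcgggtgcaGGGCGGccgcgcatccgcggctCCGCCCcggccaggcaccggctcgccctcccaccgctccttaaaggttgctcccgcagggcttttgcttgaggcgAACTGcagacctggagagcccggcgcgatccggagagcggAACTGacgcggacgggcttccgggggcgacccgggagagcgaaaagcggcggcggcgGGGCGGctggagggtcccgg
Ago4: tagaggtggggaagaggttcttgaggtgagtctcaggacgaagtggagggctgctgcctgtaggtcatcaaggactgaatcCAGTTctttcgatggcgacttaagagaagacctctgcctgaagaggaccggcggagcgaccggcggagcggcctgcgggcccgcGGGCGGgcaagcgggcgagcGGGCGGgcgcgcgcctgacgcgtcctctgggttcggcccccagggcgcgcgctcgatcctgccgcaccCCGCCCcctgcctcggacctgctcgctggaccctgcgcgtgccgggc
Piwil1: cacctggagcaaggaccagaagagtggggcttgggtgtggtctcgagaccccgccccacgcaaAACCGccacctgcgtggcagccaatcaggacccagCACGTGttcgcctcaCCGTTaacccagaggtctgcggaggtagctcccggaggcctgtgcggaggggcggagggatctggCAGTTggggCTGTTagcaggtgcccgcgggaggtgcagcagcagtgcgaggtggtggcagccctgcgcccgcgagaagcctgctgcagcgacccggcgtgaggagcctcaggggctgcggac

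The windows of the 3 Argonaute genes are rich in G and C, with 73.3%, 73.3% and 70.0% GC for Ago1, Ago3 and Ago4, where the median of 33469 RefSeq promoters of the same length is 51.7% and the upper quartile 60.3%. They hold 30, 37 and 34 CpG pairs, against a median of 7. The GC box is in 33.1% of all promoters, and here there are 2 in Ago1, 3 in Ago3, 3 in Ago4 and, not in capitals, 2 in Piwil1. Piwil1 has 68.7% GC and a single E-box beginning 152 bases before the start, a motif found in 6.42% of all promoters, and 4 copies of the MYB core, which stands in 81.4% of all promoters and so sets no gene apart. The CRX site TAATCC and the TATA box TATAAA were in none of these 4 windows, and are in 7.17% and 14.2% of all promoters. A match of letters is a description and not a binding site.

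Genes beside the members in the genome gave a local comparison. On the 2 sides of Piwil2 in the RefSeq gene order stand Slc39a14, Ppp3cc and Sorbs3, and Polr3d, Phyhip and Bmp1, of which 5 were tested in aged against young retina. Their log2 fold changes were 0.20, −0.27, −0.03, 0.02 and 0.20 for Slc39a14, Ppp3cc, Sorbs3, Polr3d and Bmp1, with adjusted p from edgeR of 0.089, 0.040, 0.88, 0.89 and 0.45. Ppp3cc, which encodes a calcineurin catalytic subunit, fell, and none came near the change of Piwil2. Around the Argonaute cluster, Adprs, Col8a2, Clspn and Psmb2 were tested and none was called, with log2 fold changes of 0.15, 0.83, −0.06 and 0.05.

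The genes whose retina pattern was most like that of Piwil2 were found among 14102 genes by Pearson correlation of log2(CPM + 1) over the same 9 libraries. They were Il17rb (0.989), which encodes an interleukin-17 receptor, the gene models AABR07059663.1 (0.989) and AABR07051787.1 (0.989), Epha1 (0.987), an ephrin receptor, and C1s (0.985), a protease of the complement cascade. Group means of C1s were 6.81, 48.6 and 49.7 CPM in young, aged and 8-AG retina, and those of Il17rb 1.42, 9.17 and 8.01 CPM. Such a correlation over 3 groups is high for any gene with a large age difference. Closest to Ago1 were Wisp1 (0.985), Abcc10, Dyrk1a, Snrk and Slc44a1 (0.966). Ago4 came closest to Ptpn23 (0.993), Vps54, Qsox2 and Kdm2a (0.979), Ago3 to Eloa (0.978), Stab2, Carmil1, AC126640.1 and Dvl2 (0.962), and Ago2 to Dock9 (0.980), AABR07031193.1, Adamts12, Topors and Kctd20 (0.921).

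In RPE/choroid, Piwil2 measured 3.30, 4.34 and 1.94 CPM in young, 7.49, 0.678 and 10.8 CPM in aged and 28.8, 2.17 and 5.52 CPM in 8-AG libraries. The groups overlapped in every comparison, and a single 8-AG library, number 1, was far above the other 8. Log2 fold changes were 0.97 (SE 0.90) for aged against young, 1.0 (SE 1.28) for 8-AG against aged and 1.94 (SE 1.01) for 8-AG against young. Without aged library 2 the first was 1.5, and without aged library 3 it was 0.36. Without 8-AG library 1 the second of these turned to −0.71 and the third dropped to 0.28.

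Markers of other cells differed between the same libraries. Rod markers summed to 17009, 18770 and 1862 CPM in young, 10950, 568 and 15709 in aged and 52360, 825 and 795 in 8-AG libraries of RPE/choroid. Aged library 2, lowest for Piwil2, was lowest for rods, and 8-AG library 1 was highest for both. Skeletal muscle markers reached 47729 CPM in 8-AG library 1 and endothelial markers were at 549 CPM there. Muscle markers were also at 4514 CPM in young library 2, 3355 in aged library 1 and 2179 in 8-AG library 2. The remaining libraries had 16.5 to 68.4 CPM of them. Lens markers were at 656 CPM in young library 2 and at 219 and 222 CPM in 8-AG libraries 1 and 3, against 20.7 to 52.2 CPM in the rest. Endothelial markers summed to 4389 to 5564 CPM in young and 2492 to 3545 CPM in aged libraries, and erythroid markers to 235 to 3276 and 157 to 220 CPM, both lower in aged RPE/choroid without overlap. Microglia and macrophage markers were at 434 CPM in 8-AG library 1, against 1198 to 2168 CPM in the other 8. Surface epithelium markers were at 1787 and 264 CPM in 8-AG libraries 1 and 3, against 3.62 to 14.4 CPM in the other 7. The markers of the pigment epithelium itself were present in all 9 libraries, at 6109 to 18166 CPM. Piwil2 per 1000 CPM of rod markers was 0.194, 0.231 and 1.04 in young, 0.684, 1.19 and 0.685 in aged and 0.551, 2.63 and 6.95 in 8-AG libraries. The 2 libraries with the last values had Piwil2 at 2.17 and 5.52 CPM with few rod transcripts. The part of these cells in the RPE/choroid values was not tested.

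**Figure D2:**
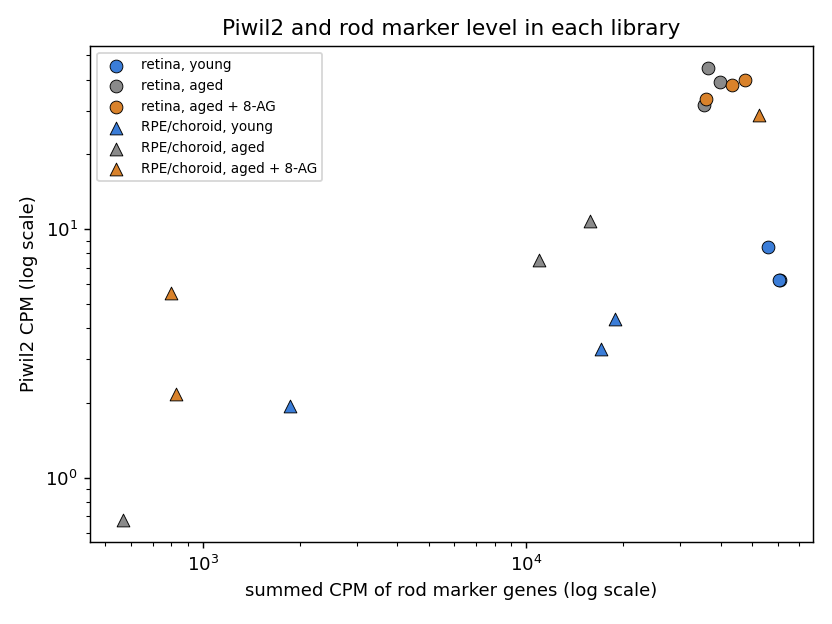
Piwil2 level against the summed level of 11 rod marker genes in each of the 18 libraries, both in CPM on log scales, with circles for retina and triangles for RPE/choroid. Young retina (6.22 to 8.51 CPM) lies under aged retina at a higher rod level, and RPE/choroid libraries spread over rod sums of 568 to 52360 CPM.

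The genes whose RPE/choroid pattern was closest to Piwil2, among 14594, were Tmem186 (0.985), Tango2 (0.975), Cmpk2 (0.974), Gdpd1 (0.971) and Ube3d (0.970). Closest to Ago1 there were Rfx5 (0.879), Zfp322a, Ermard, Zfp866 and Brpf3, to Ago2 LOC102549506 (0.972), Hnrnpa3, Wipf3, LOC108348180 and AABR07066510.1, to Ago3 Spg11 (0.942), Ptp4a2, Adck1, Mknk2 and Epn1, and to Ago4 Zfp821 (0.983), Syt9, Igsf11 and Nfxl1.

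Piwil1 had 7 counts in the 9 RPE/choroid libraries together, all in library 1 of each group, and was tested in no comparison. Piwil4 was above its retina level there, at 1.10, 0.270 and 0.815 CPM in young, 0.290, 1.09 and 0.608 CPM in aged and 2.40, 0.306 and 0.437 CPM in 8-AG libraries. Its groups overlapped, and the 8-AG library with the highest rod and muscle sums was also highest for Piwil4. Tissues were prepared and counted separately, so this difference in level was not tested.

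Ago1 measured 39.5, 31.6 and 28.9 CPM in young, 40.3, 21.4 and 21.8 CPM in aged and 25.5, 26.1 and 37.2 CPM in 8-AG RPE/choroid. The groups overlapped, and log2 fold changes were −0.26 (SE 0.30), 0.11 (SE 0.33) and −0.17 (SE 0.23) for aged against young, 8-AG against aged and 8-AG against young. With 1 library left out, the first ran from −0.64 to −0.10 and the second from −0.11 to 0.46, which can turn its sign.

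Ago2 in this tissue measured 8.37, 11.2 and 11.0 CPM in young and 6.45, 4.63 and 9.59 CPM in aged libraries, with a log2 fold change of −0.58 (SE 0.31) and overlapping groups. The 8-AG libraries gave 5.01, 10.3 and 10.6 CPM, and library 1 was again the one apart.

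Ago3 stayed between 2.33 and 5.39 CPM in all 9 libraries, with log2 fold changes of −0.08, 0.01 and −0.08 in the 3 comparisons. Ago4 measured 1.57, 0.863 and 0.795 CPM in young, 1.90, 1.09 and 1.28 CPM in aged and 0.933, 0.861 and 0.480 CPM in 8-AG libraries, from 22 to 59 counts. All 3 8-AG libraries lay under the aged ones, with a log2 fold change of −0.88 (SE 0.47).

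**Figure D3:**
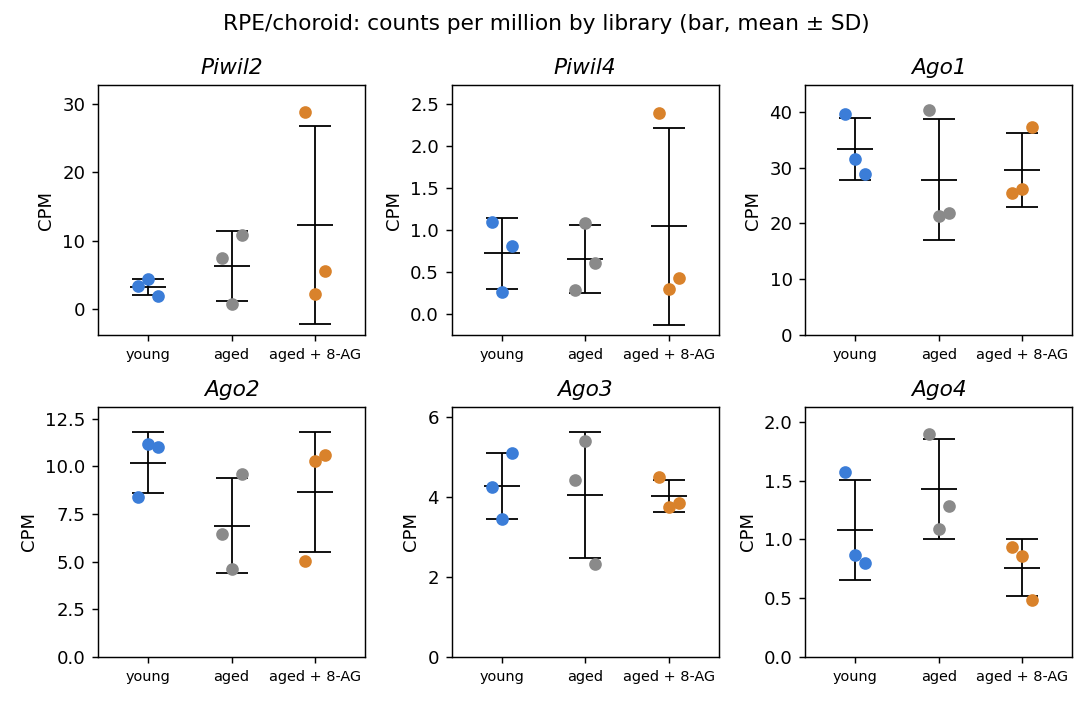
Level of 6 members in RPE/choroid, in CPM, with 1 point per library, in replicate order, and the mean ± SD of 3 libraries. One 8-AG library stands apart for Piwil2 (28.8 CPM) and Piwil4 (2.40 CPM), and groups overlap in every panel except aged and 8-AG for Ago4.

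Of the 6 members tested in RPE/choroid, none was called in edgeR in aged against young, in 8-AG against aged or in 8-AG against young, and 0% of all genes were called in each. Genes with an unadjusted P under 0.05 numbered 341 of 16047, 274 of 16257 and 341 of 16215, and DESeq2 called 29, 81 and 98 genes. The study's rule took 1.35%, 1.65% and 1.99% of all genes and none of the members. Groups that did not overlap were found for 0, 1 and 0 members, where 7.10%, 3.96% and 5.94% of all genes had them, and the 1 member was Ago4.

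**Figure D4:**
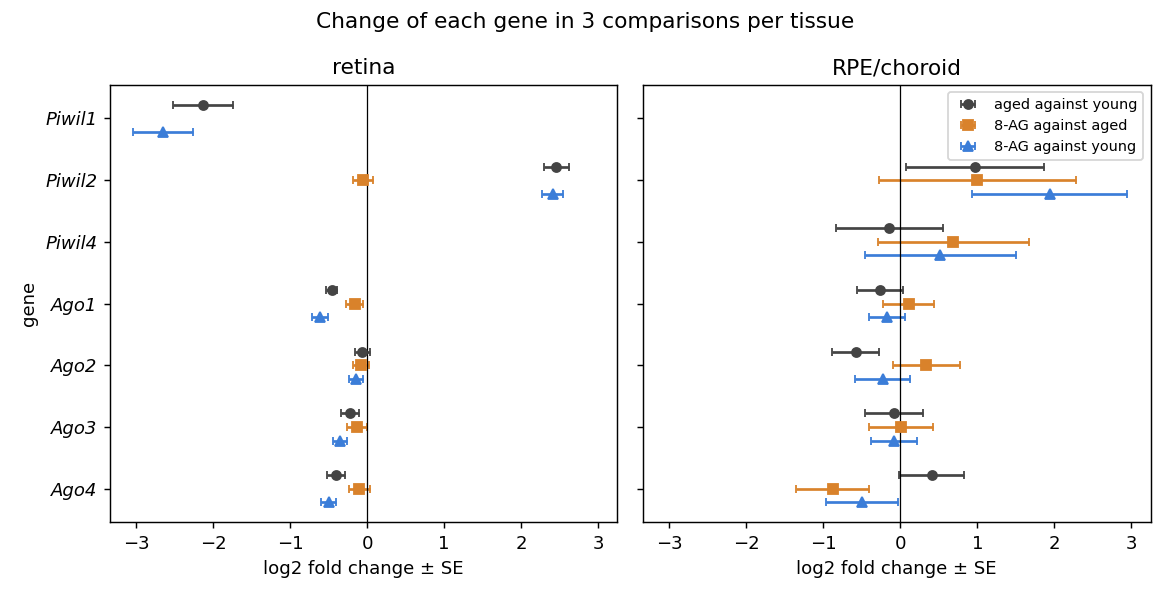
Log2 fold change ± SE of each member in the 3 comparisons of each tissue, with the first group named over the second. In retina, Piwil2 lies at 2.46 and 2.41 against young and at −0.05 for 8-AG against aged, and in RPE/choroid the error bars of Piwil2 are wide, with an SE of 0.90 to 1.28.

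The aging change was set against itself in the 2 tissues with an interaction term over 16792 genes, of which 0.161% were called. For Piwil2 the retina change exceeded that of RPE/choroid by 1.5 on the log2 scale (SE 0.98). Differences for Ago1, Ago2, Ago3 and Ago4 were −0.18 (SE 0.32), 0.53 (SE 0.32), −0.14 (SE 0.40) and −0.80 (SE 0.39). Piwil1 and Piwil4, at a few counts in 1 tissue each, gave −3.03 (SE 1.65) and 1.47 (SE 1.70). None of the 7 members was called in edgeR, where 1386 of 16792 genes had an unadjusted P under 0.05.

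The other genes of these pathways were taken from 3 lists of 80 genes in all, written from general knowledge with earlier results known. Of 56 tested in aged against young retina, 2 rose and 9 fell, 19.6% where 14.5% of all genes were called (7.29% higher and 7.26% lower). By the study's rule 1 of the 56 was called, Tdrd7, where 8.84% of all genes were. The median log2 fold change was −0.09 against 0.002 for all genes. Leaving out young library 1 or aged library 2 left 7 called, leaving out young library 2 left 5 and aged library 3 left 6, and scaling by library totals left 5.

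Among genes that make microRNAs, 15 were tested and 3 fell, where 7.26% of all genes were called lower, and none of the 15 met the study's rule in edgeR. Ddx5, a helicase of the nuclear processing complex, went from 1780, 1750 and 1850 CPM in young to 1480, 1280 and 1380 CPM in aged libraries, with no overlap and a log2 fold change of −0.37 (SE 0.07, adjusted p = 0.0056 in edgeR). Tut4 and Tut7, which add uridines to the ends of microRNA precursors and other RNAs, had log2 fold changes of −0.32 (SE 0.09) and −0.28 (SE 0.06), with adjusted p in edgeR of 0.037 and 0.017. With 1 library left out Tut4 lost its call in 4 of 6 fits, and Tut7 lost it without young library 1 or aged library 3, and both lost it with scaling by library totals. Dicer1, which cuts precursors into mature microRNAs, was not called in this comparison.

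Of the 30 Argonaute partners and silencing effectors tested, 2 rose and 5 fell, where 7.29% of all genes were called higher and 7.26% lower. None of the 30 met the study's rule in edgeR, against 8.84% of all genes. Tnrc6c and Tnrc6b, scaffolds that tie Argonaute to the enzymes that shorten messenger RNA tails, fell by 0.41 (SE 0.08) and 0.40 (SE 0.09) on the log2 scale, with adjusted p in edgeR of 0.0092 and 0.017. Tnrc6c measured 192, 205 and 195 CPM in young and 163, 129 and 153 CPM in aged libraries, without overlap. Fmr1, an RNA-binding protein of synapses, Cnot6, a deadenylase, and Pabpc1, the poly(A)-binding protein, had log2 fold changes of −0.30, −0.22 and −0.24. These 3 calls were weak, and with 1 library left out Fmr1 lost its call in 4 of 6 fits and Cnot6 and Pabpc1 in 5 of 6, and each lost it with scaling by library totals, as did Tnrc6b, which also lost it without young library 2. The genes that rose were Snd1, a nuclease associated with the silencing complex, at 0.34 (SE 0.06), and Hsp90ab1, a chaperone that helps load Argonaute, at 0.25 (SE 0.06). The call of Hsp90ab1 was lost without young library 1, young library 2 or aged library 2 and in a fit of all 3 groups.

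The piRNA list holds genes known chiefly from germ cells. Of 32 genes, 20 were found with an identifier, and 9 of them averaged at least 1 CPM in retina and 12 in RPE/choroid. Maelstrom (Mael), Tdrd1 and Gtsf1 averaged 0.171, 0.218 and 0.107 CPM in retina, and Ddx4 reached at most 0.154 on the authors' scale. The 3 male germ cell markers found summed to 1.72 to 4.06 CPM in the 9 retina libraries. Those above 1 CPM in retina included Tdrd9 (9.31 to 15.7 CPM), Tex15 (8.48 to 13.1 CPM), Mybl1 (7.71 to 10.8 CPM), Tdrkh (66.8 to 80.9 CPM) and Tdrd7, and these were singled out after their values were seen. Of the 11 tested in aged against young retina, 1 (9.09%) was called, where 14.5% of all genes were. That was Tdrd7, a Tudor protein also known from the lens, which fell from 298, 308 and 321 CPM to 191, 184 and 231 CPM, a log2 fold change of −0.61 (SE 0.08, adjusted p = 0.0014 in edgeR). Lens markers in the same young libraries summed to 2751, 6053 and 146 CPM, and in the aged ones to 24.0, 17.0 and 18.7 CPM. The part of lens cells in the Tdrd7 values was not tested. Tdrkh gave a log2 fold change of 0.03 (SE 0.07) and Mybl1, the MYB factor known to drive piRNA genes in testis, 0.09 (SE 0.15).

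**Figure D5:**
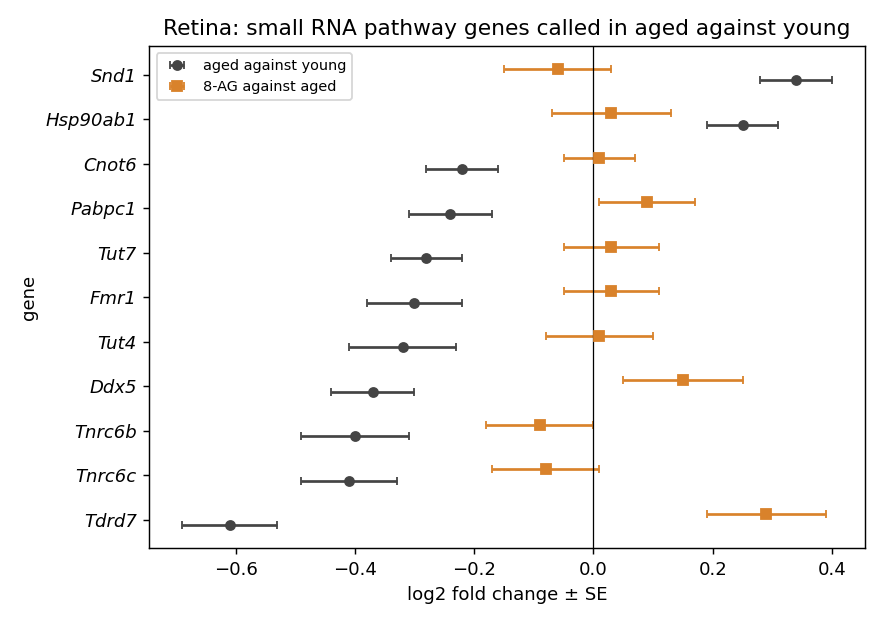
Log2 fold change ± SE of the 11 listed small RNA pathway genes called in aged against young retina, with the change of 8-AG against aged beside it. Snd1 (0.34) and Hsp90ab1 (0.25) lie above 0 and the other 9 below, down to −0.61 for Tdrd7, and none was called in 8-AG against aged.

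None of the 55 listed genes tested in 8-AG against aged retina was called in edgeR, where 0.0205% of all genes were. An unadjusted P under 0.05 was found for 2 of the 55 and for 537 of all 14631 genes tested. Nothing is read from these 2, which are named here after their values were seen. Zswim8, part of a ubiquitin ligase that targets Argonaute, gave a log2 fold change of −0.38 (SE 0.11), with means of 74.5 ± 10.3 CPM after treatment and 96.9 ± 7.91 CPM without it (SD, n = 3 each). Tdrd7 gave 0.29 (SE 0.10), with a mean of 247 ± 17.1 CPM after treatment (SD, n = 3). Against young retina 10 of 56 fell after 8-AG and none rose, where 7.10% of all genes were called lower and 7.78% higher. None of the 56 met the study's rule in edgeR, against 8.58% of all genes. An unadjusted P under 0.05 was found for 23 of the 56, against 4239 of all 14542 genes tested. The 10 called lower by adjusted p were Tnrc6a, Tnrc6b, Tnrc6c, Tut4, Tut7, Fmr1, Tdrd7, Dicer1, Dcp1a and Pan2. Their log2 fold changes in that order were −0.27, −0.48, −0.49, −0.30, −0.24, −0.27, −0.32, −0.31, −0.38 and −0.39. Without young library 2 or young library 3 the number called was 2, and without 8-AG library 2 it was 3. Snd1 and Hsp90ab1 were not called there, with log2 fold changes of 0.28 (SE 0.09, adjusted p = 0.075 in edgeR) and 0.29 (SE 0.09, adjusted p = 0.059 in edgeR), close to those in aged against young. Both comparisons with young retina use the same young libraries.

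In RPE/choroid, none of the 59 listed genes tested was called in edgeR in any of the 3 comparisons, and 2, 0 and 0 had an unadjusted P under 0.05 in aged against young, 8-AG against aged and 8-AG against young. Of all genes 0% were called there, and 341 of 16047, 274 of 16257 and 341 of 16215 had such a P. The interaction of tissue and age called none of 60 listed genes in edgeR, where 0.161% of all 16792 genes tested were called. An unadjusted P under 0.05 was found for 3 of the 60 and for 1386 of the 16792. Mov10l1, the helicase that feeds piRNA precursors into processing, averaged 10.1 CPM in RPE/choroid and 0.161 CPM in retina, and was singled out after its values were seen. It ranged from 0.467 to 17.0 CPM across the RPE/choroid libraries and gave a log2 fold change of 0.06 (SE 0.33) for aged against young.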

How the data were processed

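The retina values are expected counts per gene, which the authors estimated with RSEM and deposited without normalization, and 11.5% were not whole and were rounded. RPE/choroid tables hold raw counts of reads as deposited by the authors, and the counting program is not given in the sources used here. The submitters' processing notes name Bowtie2 2.1.0, RSEM 1.2.15, edgeR and build Rnor_6.0. A TMM-scaled signal table, which the authors made from the retina counts, served to pair symbols with identifiers by matching values within 1 count. Of 15103 identifiers named by both routes, 90.9% had the same name. The authors' own fold changes and p-values were not used.

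For each comparison its 6 libraries were fitted in edgeR 4.0.16 under R 4.3.3 (filterByExpr defaults, TMM, estimateDisp, glmQLFit with robust=TRUE, glmQLFTest), and scripts were tested on simulated data. The SE of a log2 fold change is its size divided by the square root of F. Members, gene lists and tests were chosen with earlier results of these data known. Listed genes are named where their adjusted p is under 0.05, and for each member the 5 genes of most similar pattern and for Piwil2 and the Argonaute cluster the 3 neighbours on each side, except that some genes similar to Ago4 are not reported here. Alternatives were DESeq2 1.42.0, other size factors and filters, a fit over all 3 groups, replicate number as a block, unrounded counts, and each library left out. Promoter sequences are from RefSeq (GRCr8). Replicate numbers did not pair libraries: the deviations of same-numbered retina libraries correlated at −0.25 to 0.22 and those of RPE/choroid at −0.58 to 0.65.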

Additional observations from a re-analysis of the deposited data

How the results depend on the processing

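Scaling by library totals was chosen after seeing the data. In retina aged against young it gave 5 listed pathway genes called and in 8-AG against young 6, in place of 11 and 10. The replicate block, which has no basis in shared animals, took the calls of Ago4, Tut4, Fmr1, Cnot6, Pabpc1 and Hsp90ab1 in aged against young and of Ago3 in 8-AG against young retina. It gave 6 pathway genes in aged against young, 0 genes in 8-AG against aged retina, and 138 and 137 genes by the fold and P rule in RPE/choroid aged against young and 8-AG against young. In 8-AG against aged retina, where 3 genes were called, DESeq2 called 18, no expression filter 10, and a minimum of 10 counts in every library 0, as did robust=FALSE, while the fold and P rule gave 318 without the filter and 92 with the minimum. In RPE/choroid aged against young, 8-AG against aged and 8-AG against young, DESeq2 called 29, 81 and 98 genes where edgeR called 0. By the fold and P rule DESeq2 took 384, 755 and 855 genes, no filter 364, 503 and 597, and a fit of all 3 groups 131, 465 and 512. Summing the libraries that share a label number left 85 and 112 genes in the last pair of comparisons.

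Leaving out 1 library at a time gave 1245 to 2312 called genes in retina aged against young and 1026 to 2451 in 8-AG against young, with 5 to 16 and 2 to 14 pathway genes. In 8-AG against aged retina it gave 0 to 3 genes, and 142 to 255 by the fold and P rule. In RPE/choroid the fold and P rule gave 213 to 414, 86 to 733 and 115 to 1202 genes over the 3 comparisons. Piwil2 ran from 0.28 to 2.47 in RPE/choroid 8-AG against young, lowest without 8-AG library 1. In retina aged against young it stayed between 2.34 and 2.62. The cause of these shifts was not tested, other than that a fit with fewer libraries has fewer observations. Low counts limit Piwil1 and Piwil4, and rod marker sums of 568 to 52360 CPM stand beside every RPE/choroid value.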
